A study of Homo sapiens with 36 samples.

Results

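The urokinase system and its neighbouring serpins were followed through 9 listed genes: the plasminogen activators PLAU and PLAT, the urokinase receptor PLAUR, and the serpins SERPINE2, SERPINB2, SERPINB3, SERPINB4, SERPINB5 and SERPINB7. They are 9 of the 60725 Ensembl genes in the expression tables, and all 9 were found by symbol. The list was set by gene name, and it was chosen with earlier results of these data known. RNA was sequenced in 36 libraries, which form 18 groups of 2. The ER-Src line was derived from MCF-10A, non-transformed epithelial cells of the breast, and every cell carries v-Src joined to the estrogen receptor's ligand-binding domain, through which tamoxifen activates the oncoprotein. These cells received a control siRNA (Ctrli) or siRNAs against YAP (YAPi), TAZ (TAZi, gene WWTR1), STAT3 (STAT3i) or JUNB (JUNBi), each under tamoxifen (TAM) or its ethanol vehicle (ETH). The labels give 0.4 to 1 uM tamoxifen together with 2 to 4 uM AZD0530, an inhibitor of Src family kinases, in the same text for every library. The study's methods likewise name both agents for the siRNA-treated cells, and neither source says whether the ETH libraries received AZD0530. The established line MDA-MB-231 comes from a triple-negative breast cancer. Its libraries form set 1 (Ctrli, YAPi, TAZi, YAPi_TAZi, which targets both, and TEADi against the TEAD family) and set 2 (Ctrli, JUNBi and STAT3i). Each line is a single established culture, and nothing in the sources says that paired libraries came from separate cultures, so p-values measure only the spread between these libraries.

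Urokinase (PLAU) and tissue plasminogen activator (PLAT) are secreted proteases that cut plasminogen into plasmin, which degrades fibrin and activates matrix proteases. PLAUR is a membrane-anchored receptor that holds urokinase at the cell surface, where it is known for its part in migration and invasion. Serpins trap proteases as suicide substrates: SERPINE2 (protease nexin 1) and SERPINB2 (plasminogen activator inhibitor type 2) both inhibit plasminogen activators. SERPINB3 and SERPINB4 are the squamous cell carcinoma antigens, near-identical intracellular inhibitors of cysteine and serine proteases. SERPINB5 (maspin) is a non-inhibitory serpin of breast epithelium, and SERPINB7 is an epithelial serpin best known from skin.

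Of the 9 members, the 5 clade B serpins lie within 1 cluster on chromosome 18. In GRCh38 coordinates with GENCODE 44 gene models, SERPINB5 spans chr18:63476958-63505085 (plus strand), SERPINB4 chr18:63637259-63644256 (minus), SERPINB3 chr18:63655197-63661893 (minus), SERPINB7 chr18:63752935-63805376 (plus) and SERPINB2 chr18:63871692-63903888 (plus). The others lie on 4 further chromosomes, with PLAU at chr10:73909177-73917496 (plus), PLAUR at chr19:43646095-43670547 (minus) and SERPINE2 at chr2:223975045-224039318 (minus).

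The sequences of SERPINB3 and SERPINB4 are shown because reads of the pair can be shared, which bears on every value given for either gene. Over the 250 bases before the RefSeq start site (GRCh38.p14, minus strand, read 5′ to 3′), 247 bases were the same (98.8%). Capitals mark the 3 bases that differ. The SERPINB3 window is chr18:63661894-63662143 and the SERPINB4 window is chr18:63644257-63644506.
SERPINB3 promoter: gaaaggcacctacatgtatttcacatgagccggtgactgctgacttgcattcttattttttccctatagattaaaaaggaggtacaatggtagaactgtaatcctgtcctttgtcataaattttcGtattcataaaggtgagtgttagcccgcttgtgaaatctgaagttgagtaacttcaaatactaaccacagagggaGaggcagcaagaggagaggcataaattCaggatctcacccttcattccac
SERPINB4 promoter: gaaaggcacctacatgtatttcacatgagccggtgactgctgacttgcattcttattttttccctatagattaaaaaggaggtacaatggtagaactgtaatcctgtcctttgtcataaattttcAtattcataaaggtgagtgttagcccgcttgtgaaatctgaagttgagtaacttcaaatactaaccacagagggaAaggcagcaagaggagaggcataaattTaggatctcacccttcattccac
The coding sequences of 1170 bases had 1114 bases in common (95.2%), and 260 of the 1121 windows of 50 bases (23.2%) held no difference, so short reads from those stretches fit both genes. The 60 coding bases that differ most (coding bases 952 to 1011, in exon 8 of 8) held 10 differences, again in capitals. They lie at chr18:63655819-63655878 in SERPINB3 and at chr18:63637881-63637940 in SERPINB4, both on the minus strand.
SERPINB3 exon 8: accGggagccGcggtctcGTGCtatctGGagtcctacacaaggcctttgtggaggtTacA
SERPINB4 exon 8: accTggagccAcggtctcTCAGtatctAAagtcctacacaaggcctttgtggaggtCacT

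The windows before PLAUR, SERPINB2 and SERPINB5, genes with 1 start site each, are shown because they hold a match to the AP-1 element, to which JUNB-containing dimers bind. The search covered TGANTCA (AP-1), GGAATG or its reverse complement CATTCC (TEAD) and TTCNNNGAA (STAT) on both strands, N standing for any base. The first and last of these read the same on either strand. Among 35116 RefSeq promoters, 6.57% of the 250-base windows held TGANTCA, 11.9% held GGAATG or CATTCC and 6.57% held TTCNNNGAA. Capitals mark the match in chr19:43670170-43670419 (minus strand), chr18:63887455-63887704 (plus) and chr18:63476708-63476957 (plus), which begins 186, 102 and 146 bases before the start.
PLAUR promoter: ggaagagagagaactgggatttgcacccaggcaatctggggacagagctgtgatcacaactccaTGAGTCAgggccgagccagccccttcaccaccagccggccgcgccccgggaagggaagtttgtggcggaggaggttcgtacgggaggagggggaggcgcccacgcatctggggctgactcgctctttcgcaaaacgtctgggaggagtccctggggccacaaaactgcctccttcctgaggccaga
SERPINB2 promoter: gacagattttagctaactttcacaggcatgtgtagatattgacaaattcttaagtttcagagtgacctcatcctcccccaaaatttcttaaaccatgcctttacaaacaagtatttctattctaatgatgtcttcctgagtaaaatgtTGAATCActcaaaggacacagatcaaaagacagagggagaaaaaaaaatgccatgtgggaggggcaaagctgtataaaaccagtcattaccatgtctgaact
SERPINB5 promoter: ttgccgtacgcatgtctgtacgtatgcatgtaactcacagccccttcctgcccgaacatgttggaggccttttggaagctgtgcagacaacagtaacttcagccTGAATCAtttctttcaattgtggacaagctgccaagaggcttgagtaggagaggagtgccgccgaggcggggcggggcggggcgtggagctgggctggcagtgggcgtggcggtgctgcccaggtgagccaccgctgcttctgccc
Of the 9 members, 8 had a promoter entry and PLAT had none. SERPINB3 and SERPINB4 shared a CATTCC that begins 8 bases before the start. SERPINB7 has 3 start sites, of which 1 held TTCCCTGAA. Each of its other windows, not printed here, held TGATTCA and TGAGTCA, both matches to the AP-1 element. No window of PLAU or SERPINE2 held any of these letters, which says nothing about binding elsewhere.

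Depth in ER-Src was 6419720 to 19161700 expected counts per library, that is, the estimated read numbers per gene that the quantifier RSEM gives. In MDA-MB-231 set 1, the control libraries held 13456784 and 13534560 and the 8 knockdown libraries 1411304 to 2784605. A group of 5 RNAs without a poly(A) tail took 8.71% to 11.8% of counts in the set 1 knockdowns but 0.00275% to 0.00407% in the set 1 controls, so library type and knockdown cannot be told apart there. The knockdown libraries were themselves of 2 kinds: in every replicate 1 the effective length, the part of a transcript where a read can start, was 48.0 bases below the full length, and in every replicate 2 it was 74.6 bases below. Set 2 held 7290499 to 18076158 counts, with 0.0036% to 0.0112% in those RNAs. In ER-Src, the effective length was 49.0 bases below the full length in every STAT3i and JUNBi library. It was 49.5 bases below in every Ctrli, YAPi and TAZi library, so this trait and knockdown of STAT3 or JUNB cannot be told apart. The targeted genes YAP1, WWTR1 and STAT3 were lower in both libraries of every ER-Src knockdown aimed at them. JUNB was lower in JUNBi under TAM (log2 fold change -2.03 ± 0.35 SE, DESeq2 adjusted p = 5.8e-07), while under ETH its -1.16 ± 0.39 missed the threshold (adjusted p = 0.064). In set 1, where library type also differed, YAP1 was lower in YAPi (-2.63 ± 0.21) and WWTR1 in TAZi (-4.90 ± 0.34). WWTR1 was lower in YAPi (-1.14 ± 0.23) and TEADi (-0.89 ± 0.18) too. In TEADi, TEAD1 fell least of the TEAD genes (-0.82 ± 0.15). In set 2, JUNB was lower in JUNBi (-2.04 ± 0.31), and STAT3 was lower in STAT3i (-2.41 ± 0.32) but received no adjusted p. The lines matched their labels: KRT5, a basal keratin, reached 1012 to 2622 TPM (transcript abundance scaled per gene length and per library) in ER-Src and at most 11.5 TPM in MDA-MB-231, where vimentin stood at 369 to 2591 TPM. Within MDA-MB-231, KRT5 was at 0 TPM in the set 1 controls and in set 2, and at a median of 3 TPM in the set 1 knockdowns. The source of this KRT5 RNA was not tested. Markers of other cell types summed to at most 1.33 TPM in ER-Src and 10.9 TPM in MDA-MB-231, and PTPRC (leukocytes) did not exceed 0.08 TPM. In bulk RNA, fewer cells that express a gene and less RNA of it per cell cannot be told apart.

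In control cells, 8 of the 9 members differed between TAM and ETH. A gene was called at a DESeq2 adjusted p under 0.01 over all genes, which 6.21% of genes passed in this comparison. The receptor, urokinase, SERPINE2, SERPINB2, SERPINB3 and SERPINB4 rose, PLAT and SERPINB5 fell, and SERPINB7 was not called. The median log2 fold change of the members was 1.60, against -0.01 over all genes tested.

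Both activators changed, in opposite directions. PLAU stood at 2.49 and 2.28 TPM under ETH and at 6.99 and 6.33 TPM under TAM, a log2 fold change of 1.60 ± 0.24 (SE, n = 2 per group, adjusted p = 1.4e-09). PLAT, at chr8:42174718-42207709 on the minus strand, went from 26.4 and 22.4 TPM to 10.2 and 9.93 TPM (-1.0 ± 0.16, adjusted p = 8.2e-09). Neither pair of groups overlapped, and PLAT stayed the higher of the activators on the TPM scale under both treatments. PLAUR, the receptor that binds urokinase, rose from 8.30 and 6.19 TPM to 32.9 and 30 TPM (2.34 ± 0.18, adjusted p = 1.3e-36).

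Among the inhibitors of plasminogen activators, SERPINE2 rose most. It went from 2.23 and 2.04 TPM to 17.7 and 13.2 TPM, a log2 fold change of 3.28 ± 0.22 (adjusted p = 2.4e-46). SERPINB2 stood at 1.43 and 1.05 TPM under ETH and at 3.43 and 2.77 TPM under TAM (1.37 ± 0.39, adjusted p = 0.0074). The SERPINB2 groups did not overlap, but its call was lost without any single library (adjusted p 0.1 to 0.68).

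The squamous cell carcinoma antigens showed the largest changes of the 9 members. SERPINB3 was at 1.74 and 1.01 TPM under ETH and at 427 and 374 TPM under TAM (8.39 ± 0.17, with an adjusted p that the software returned as 0). SERPINB4 was at 0.20 and 0.25 TPM under ETH, from 8.71 and 7.07 counts, and at 252 and 199 TPM under TAM (10.19 ± 0.38, adjusted p = 3.3e-158). The 2 genes therefore went from the range of the lowest members to the highest TPM among them. With the counts of the pair summed, which does away with the question of shared reads between them, the log2 fold change was 8.79 ± 0.16. Across all 10 TAM libraries SERPINB4 took 24.1% to 36.7% of the counts of the pair.

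SERPINB5 and SERPINB7 behaved differently from their neighbours. SERPINB5 fell from 60.9 and 52.2 TPM to 26.6 and 23.5 TPM. On normalized counts, which do not correct for gene length, its log2 fold change was smaller, at -0.53 ± 0.12 (adjusted p = 0.00011), and with offsets from the deposited effective lengths it was -0.89. The SERPINB5 groups did not overlap in TPM, but its call was lost without any single library (adjusted p 0.023 to 0.17). SERPINB7 was low throughout, at 1.43 and 0.96 TPM under ETH and 1.25 and 0.93 TPM under TAM (0.52 ± 0.52, adjusted p = 0.81).

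**Figure D1:**
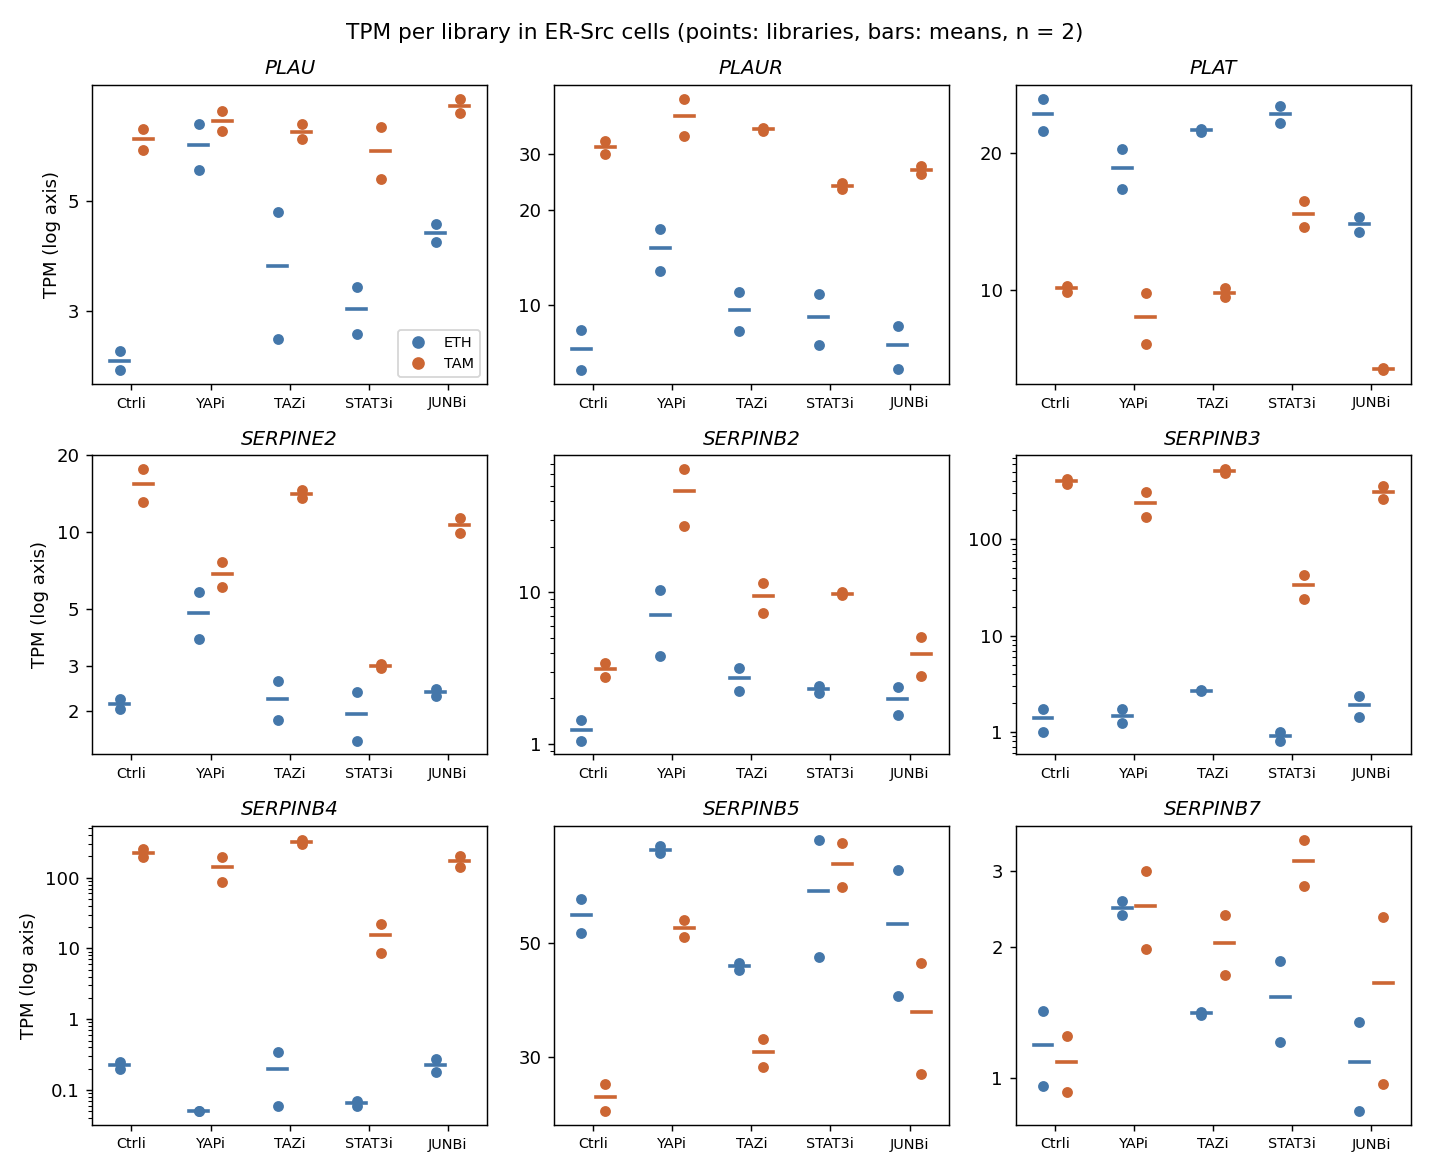
TPM of the 9 members (1 panel each, log axis) in every ER-Src library, for 5 siRNAs under ETH and TAM, with 2 points per group. For SERPINB3 and SERPINB4 every TAM library lies above every ETH library, and the STAT3i libraries are the lowest of the TAM libraries.

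Knockdown of STAT3 under TAM changed 6 of the 9 members, against a background of 8.22% of genes called. SERPINB3, SERPINB4, SERPINE2 and PLAUR fell, all of which rose with TAM, while SERPINB5, which fell with TAM, and SERPINB2, which rose with it, were higher. Both comparisons use the same Ctrli TAM libraries, so opposite signs are not independent of each other. The median log2 fold change of the members was -0.30, against 0.03 over all genes tested.

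SERPINB3 fell to 43.0 and 23.8 TPM in STAT3i, from 427 and 374 TPM in Ctrli (-3.89 ± 0.41, adjusted p = 5.4e-19). SERPINB4 fell to 22.3 and 8.72 TPM (-4.22 ± 0.65, adjusted p = 3.9e-09), and the summed pair by 3.99 on the log2 scale (SE 0.48, adjusted p = 1.2e-14). Both genes remained above every ETH library. SERPINE2 went from 17.7 and 13.2 TPM to 3.06 and 2.94 TPM (-2.85 ± 0.21, adjusted p = 3e-38), just above the 1.53 and 2.37 TPM of STAT3i under ETH. PLAUR fell less, to 24.2 and 23.2 TPM (-0.74 ± 0.16, adjusted p = 0.00011), and this call was lost without any single library (adjusted p 0.031 to 0.1).

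SERPINB5 was at 78.2 and 64.2 TPM in STAT3i under TAM, above the libraries of Ctrli under either treatment (0.97 ± 0.14 against Ctrli TAM, adjusted p = 2.2e-10). The rise over Ctrli TAM was smaller on mean normalized counts (1346 to 2629) than in mean TPM (25.1 to 71.2). SERPINB2 was at 9.99 and 9.61 TPM, against 3.43 and 2.77 TPM (1.39 ± 0.26, adjusted p = 1.9e-06), but lost its call without either STAT3i library (adjusted p 0.01 and 0.024). PLAU, PLAT and SERPINB7 were not called (log2 fold changes -0.30, 0.37 and 0.92). JUNB itself also fell in STAT3i under TAM, from 54.4 and 71.0 TPM to 14.4 and 14.9 TPM (-2.41 ± 0.16, adjusted p = 2.5e-47), and its part in these values was not tested.

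Knockdown of YAP under TAM changed 3 of the 9 members, with 10.7% of genes called. SERPINB2 rose from 3.43 and 2.77 TPM to 27.4 and 64.8 TPM (4.09 ± 0.68, adjusted p = 7.7e-08), the highest level of this gene in the ER-Src libraries. The YAPi libraries differed from each other by more than the Ctrli libraries did, and without Ctrli TAM replicate 2 the adjusted p was 0.015. SERPINB5 rose to 51.2 and 55.4 TPM (1.31 ± 0.15, adjusted p = 1e-15). SERPINE2 fell to 7.65 and 6.12 TPM (-0.87 ± 0.17, adjusted p = 1.2e-05), a call that was lost without either Ctrli library or YAPi replicate 2 (adjusted p 0.014 to 0.086).

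SERPINB3 and SERPINB4 were not called in YAPi under TAM, where the YAPi libraries lay far apart. SERPINB3 stood at 309 TPM in replicate 1 and 171 TPM in replicate 2 (-0.72 ± 0.34, adjusted p = 0.16), and SERPINB4 at 196 and 88.2 TPM (-0.67 ± 0.49, adjusted p = 0.43). All 4 values lay below those of Ctrli. Without replicate 1 both were called, at -1.08 (adjusted p = 1.2e-13) and -1.24 (adjusted p = 2.2e-14). The edgeR test called both without a filter on low counts (adjusted p 1.9e-10 and 1.7e-08) and neither with one (0.047 and 0.13).

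Knockdown of TAZ under TAM changed 2 of the 9 members, with 3.42% of genes called. SERPINB2 rose to 7.27 and 11.5 TPM (1.55 ± 0.28, adjusted p = 3e-06), and without TAZi replicate 2 the change was 1.25 (adjusted p = 0.23). SERPINB4 was at 296 and 347 TPM, against 252 and 199 TPM (0.38 ± 0.10, adjusted p = 0.0051). That call was lost without Ctrli replicate 2 or without either TAZi library (adjusted p 0.075 to 0.77), and the summed pair of SERPINB3 and SERPINB4 was not called (0.29 ± 0.09, adjusted p = 0.022).

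Knockdown of JUNB under TAM changed 3 of the 9 members, with 6.90% of genes called, and all 3 fell. SERPINB3 was at 360 and 265 TPM (-0.57 ± 0.11, adjusted p = 4.7e-06) and SERPINB4 at 206 and 142 TPM (-0.59 ± 0.12, adjusted p = 6.6e-05). The SERPINB4 libraries overlapped with Ctrli in TPM, while those of SERPINB3 did not. The summed pair fell by 0.58 on the log2 scale (SE 0.11, adjusted p = 6.8e-06). SERPINE2 was at 11.4 and 9.97 TPM (-0.73 ± 0.18, adjusted p = 0.0011).

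The JUNBi changes kept their direction without single libraries, while the calls were lost. SERPINB3 gave -0.50 without Ctrli replicate 1 (adjusted p = 0.066) and -0.60 without replicate 2 (0.011). SERPINB4 gave -0.48 without Ctrli replicate 1 (0.15) and -0.47 without JUNBi replicate 2 (0.021), and SERPINE2 was between -0.64 and -0.81 without each of the 4 libraries in turn (0.025 to 0.27). The edgeR test called none of the 3 without a filter on low counts (adjusted p 0.062 to 0.12), and SERPINB3 (0.0094) and SERPINE2 (0.0042) with one. Without the filter it called 0.0866% of genes, and in simulated data it recovered no known change in this comparison. With so few genes called, its lack of calls there says little about these 3 genes. The simulated data had a preset spread between libraries, not one estimated from these libraries. PLAUR, whose promoter holds the AP-1 letters shown above, was at 27.5 and 26.0 TPM against 32.9 and 30 TPM and was not called (-0.40 ± 0.16, adjusted p = 0.089).

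**Figure D2:**
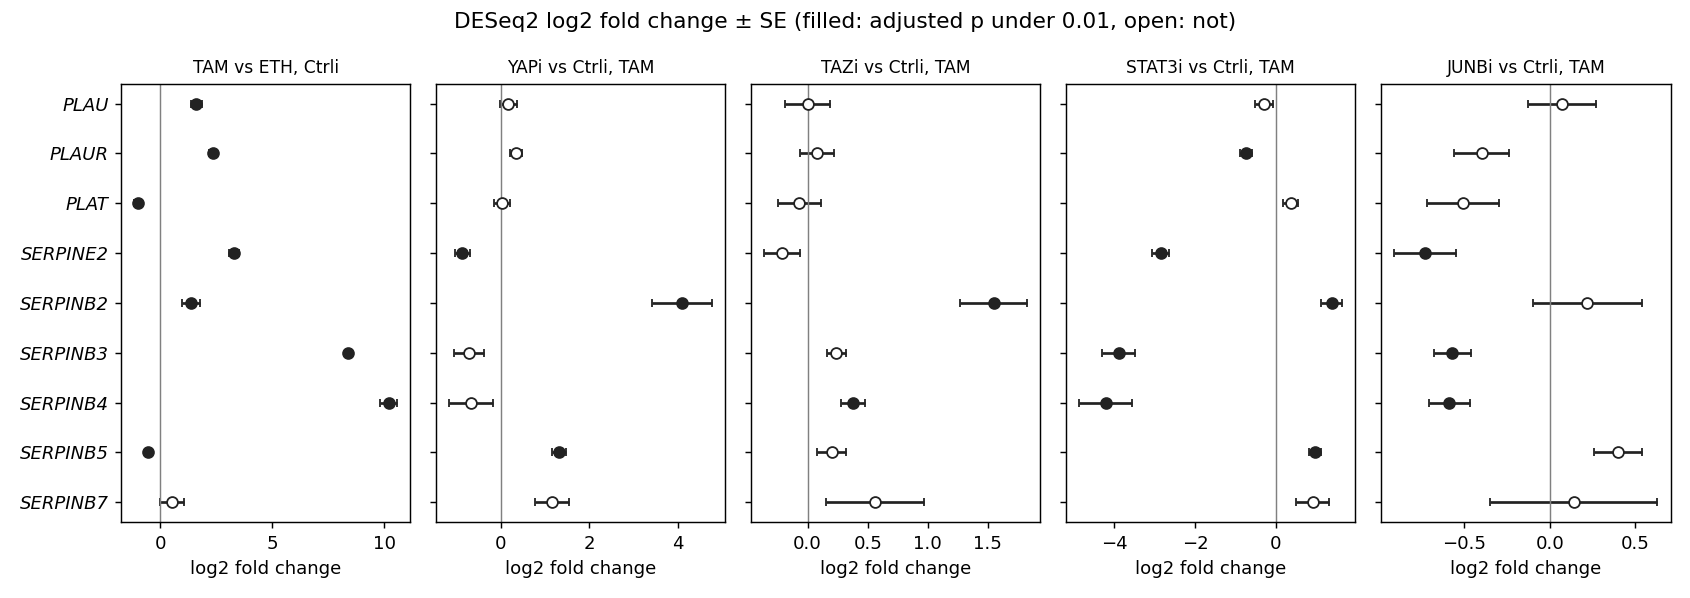
Log2 fold change ± SE of each member in 5 ER-Src comparisons: TAM against ETH in control cells, and each of 4 knockdowns against Ctrli under TAM (x axes differ between panels). Filled points passed an adjusted p of 0.01: 8 members with TAM, and 3, 2, 6 and 3 members in YAPi, TAZi, STAT3i and JUNBi.

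Under ETH, where Src was not induced, knockdown of YAP changed 6 of the 9 members, all upward, with 11.6% of genes called. SERPINB4 received no adjusted p, since DESeq2 sets genes of low mean count aside. The median log2 fold change of the members was 1.22, against -0.00 over all genes tested. PLAU rose from 2.49 and 2.28 TPM to 7.16 and 5.78 TPM (1.41 ± 0.23, adjusted p = 6.9e-08), within the 5.53 to 8.04 TPM that the gene had across all TAM groups. SERPINB5 rose from 60.9 and 52.2 TPM to 74.6 and 77.0 TPM. On normalized counts, which do not correct for gene length, its rise was larger, from a mean of 2376 to 4900 (1.04 ± 0.13, adjusted p = 2.2e-14). Both calls held without any single library.

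The other 4 rises under ETH lost their call when single libraries were left out, with fold changes that mostly stayed close to those of the full fit. PLAUR was at 12.8 and 17.4 TPM in YAPi, against 8.30 and 6.19 TPM (1.00 ± 0.25, adjusted p = 0.00076), and was not called without either Ctrli library or YAPi replicate 2 (0.70 to 1.06, adjusted p 0.061 to 0.23). SERPINE2 was at 5.87 and 3.83 TPM (1.57 ± 0.29, adjusted p = 1.6e-06), and gave 1.43 (adjusted p = 0.014) without Ctrli replicate 1 and 1.48 (adjusted p = 0.023) without YAPi replicate 1. SERPINB2 was at 3.80 and 10.4 TPM (2.63 ± 0.79, adjusted p = 0.0079), and its change was 1.59 without YAPi replicate 2 (adjusted p = 0.021) and 2.62 without either Ctrli library (adjusted p 0.3 and 0.31). SERPINB7, the epithelial serpin that was not called with TAM, was at 2.56 and 2.37 TPM (1.51 ± 0.39, adjusted p = 0.0012) and was not called without any single library (1.27 to 1.80, adjusted p 0.03 to 0.16).

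The other knockdowns under ETH called none of the 9 members with DESeq2. For TAZi, 5.24% of genes were called, and 2 members had an unadjusted p under 0.05 (SERPINB2 and SERPINB3). For STAT3i, 0.189% of genes were called and 0 members had an unadjusted p under 0.05. For JUNBi, 2.80% were called and 2 members had an unadjusted p under 0.05 (PLAU and PLAT). The quasi-likelihood test of edgeR called 2, 0 and 0 members in these comparisons, and after a filter on low counts 0 in each. Its shares of genes called were 6.57%, 0.671% and 3.20%, and after the filter 3.37%, 0.00% and 0.00671%. With so few genes called for STAT3i and JUNBi after the filter, 0 members there says little. PLAT in JUNBi under ETH, at 14.5 and 13.4 TPM against 26.4 and 22.4 TPM (-0.75 ± 0.25, adjusted p = 0.059), passed without JUNBi replicate 2 (-0.90, adjusted p = 0.00022).

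Whether a knockdown acted differently under TAM and under ETH was tested directly with an interaction term. For YAPi, 2 members were called and 0.498% of genes. SERPINE2 rose with YAPi under ETH (1.57) and fell under TAM (-0.87), an interaction of -2.46 ± 0.28 (adjusted p = 3.8e-15) that held without any single library. PLAU rose under ETH (1.41), while under TAM its change was 0.17 ± 0.19 (interaction -1.25 ± 0.27, adjusted p = 0.00084). The PLAU interaction was not called without Ctrli ETH replicate 1, Ctrli TAM replicate 1, YAPi ETH replicate 1 or YAPi TAM replicate 2 (adjusted p 0.018 to 0.028). SERPINB3, not called with all libraries (-0.93, adjusted p = 1), was called without YAPi TAM replicate 1 (-1.34, adjusted p = 2.5e-05).

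For STAT3i, 2 members were called for the interaction, and 1.34% of genes. SERPINE2 changed by 0.17 ± 0.43 under ETH and by -2.85 ± 0.21 under TAM (interaction -3.04 ± 0.39, adjusted p = 9.6e-12). SERPINB3 changed by -0.72 ± 0.56 under ETH, where its libraries held 27.9 to 67.3 counts, and by -3.89 ± 0.41 under TAM (interaction -3.19 ± 0.56, adjusted p = 3.3e-06). Both held without any single library. SERPINB4 had 1.06 to 8.71 counts in these ETH libraries and its interaction was not called (-2.03 ± 0.89, adjusted p = 0.49). Without STAT3i ETH replicate 1, PLAUR (-1.19, adjusted p = 0.0011) and SERPINB5 (0.82, adjusted p = 0.0015) were called too.

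For TAZi and JUNBi, DESeq2 called none of the 9 members for the interaction, with 1.60% and 0.288% of genes called. For TAZi 1 member (SERPINB3) and for JUNBi 2 members (SERPINE2 and SERPINB3) had an unadjusted p under 0.05. The edgeR test called 0 members in either comparison, with or without a filter on low counts. It called 1.58% of genes for TAZi and 0.868% for JUNBi, and after the filter only 0.0326% and 0.00%. In JUNBi, SERPINB3 was called without JUNBi ETH replicate 2 (-1.13, adjusted p = 0.0015). Only 5 of the 9 members had an adjusted p for TAZi.

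**Figure D3:**
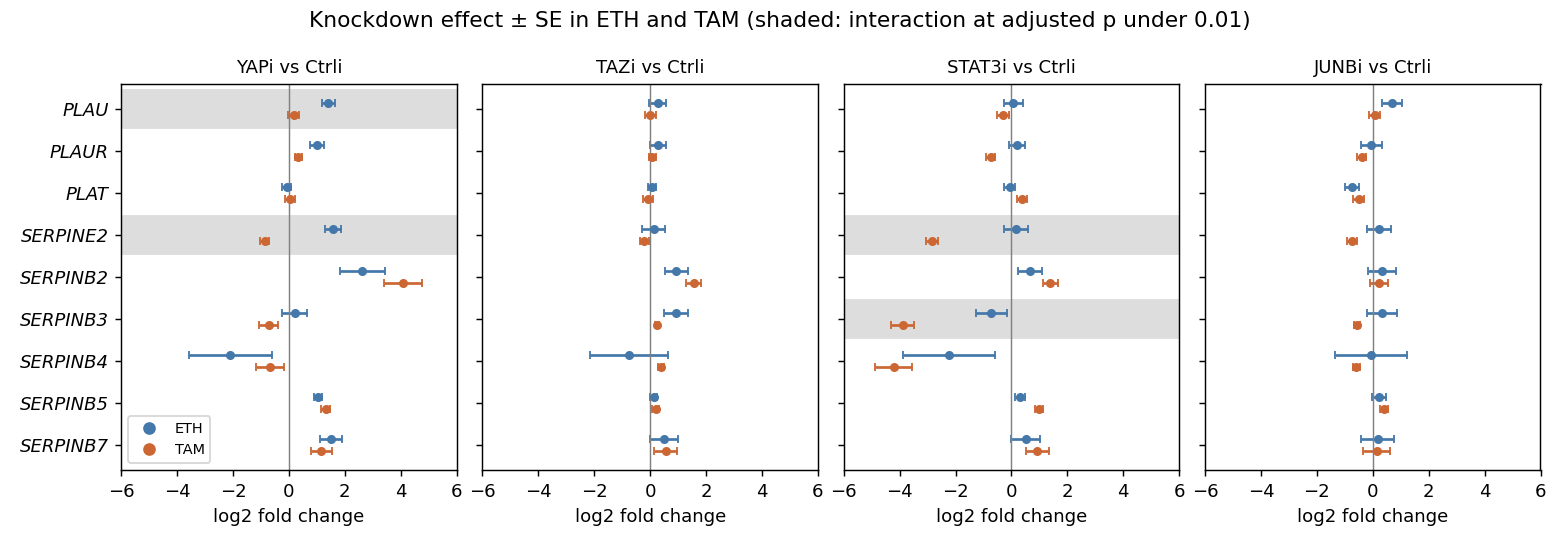
Log2 fold change (± SE) of each member in each of 4 ER-Src knockdowns against Ctrli, under ETH and under TAM. Shading marks the 4 called interactions: PLAU and SERPINE2 in YAPi, and SERPINB3 and SERPINE2 in STAT3i.

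Across the ER-Src groups, the order of levels differed between members. For SERPINB3, every TAM group stood above every ETH group, and STAT3i lay lowest of the TAM groups, apart from the others. SERPINB5 was lowest in Ctrli under TAM and highest in YAPi under ETH, with most neighbouring groups overlapping. SERPINB7 ran from 0.84 to 3.54 TPM, and each group overlapped with its neighbour in the order. Over the means of the 10 ER-Src groups, the gene most like SERPINB3 among 10001 genes was SERPINB4 (r = 0.993), followed by NPC1 (0.992) and SOCS3 (0.991), the last being a feedback inhibitor of STAT3 signalling. For PLAUR they were ANTXR2 (0.978), ITGB6 (0.975) and IL24 (0.974). For SERPINE2, DUSP22 and MGAT5 (both 0.963) and CD55 (0.961) came closest. These correlations describe 10 points that share control cells, siRNA series and treatment.

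MDA-MB-231 cells carried a different part of the system. PLAU and PLAUR were the highest members in every library, and SERPINB3, SERPINB4, SERPINB5 and SERPINB7 were at or near 0, with at most 7.33 counts in any library. PLAU ranged from 30.6 to 324 TPM over the 16 libraries, against 2.28 to 8.04 TPM over the 20 ER-Src libraries. PLAUR ranged from 66.2 to 242 TPM, against 6.19 to 45 TPM. Levels from the 2 lines come from libraries of partly different types, so no test was run between them.

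In set 1, where controls and knockdowns also differed in library type, PLAT was lower in each of the 4 knockdowns. It stood at 192 and 214 TPM in Ctrli, 11.4 and 19.6 TPM in YAPi, 8.13 and 12.9 TPM in TAZi, 5.32 and 6.96 TPM in YAPi_TAZi and 6.47 and 8.45 TPM in TEADi. The log2 fold changes were -2.62 ± 0.17, -3.25 ± 0.18, -4.49 ± 0.24 and -3.37 ± 0.21, all past the threshold (largest adjusted p = 3.7e-50), and no single library changed these calls. The set 2 controls, with a like share of the RNAs without a poly(A) tail, held 13.2 and 8.13 TPM of PLAT, so the set 1 controls stood apart from every other MDA-MB-231 library.

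PLAU in set 1 gave different pictures on the 2 scales. Its TPM was 319 and 324 in Ctrli, 79.2 and 131 in YAPi, 55.8 and 101 in TAZi, 30.6 and 51.5 in YAPi_TAZi and 67.0 and 109 in TEADi. On mean normalized counts YAPi and Ctrli were close (2327 and 2470, log2 fold change -0.09 ± 0.10, adjusted p = 0.56), and TAZi (-0.58 ± 0.07, adjusted p = 2.3e-14), YAPi_TAZi (-1.63 ± 0.09, adjusted p = 2.4e-69) and TEADi (-0.35 ± 0.10, adjusted p = 0.0013) were lower. The TEADi call was lost without either Ctrli library (0.16 and 0.23), and the TAZi call without Ctrli replicate 2 (0.011). In each of the 4 knockdowns replicate 2 stood above replicate 1 in TPM of PLAU, PLAUR and PLAT, along with the difference in effective length. Against the other 3 knockdowns of set 1, which hold the same 2 kinds of library, with the replicate number as a block, YAPi_TAZi still had lower PLAU (-1.30 ± 0.19, adjusted p = 2.2e-08), in a comparison that called 1.13% of genes.

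In all, set 1 called 2 members with YAPi (24.4% of genes called), 4 with TAZi (32.8%), 6 with YAPi_TAZi (35.6%) and 3 with TEADi (27.5%). For YAPi, TAZi and TEADi these shares of the 9 are near the background. SERPINB2 was called higher in each, from 2.15 and 3.25 TPM in Ctrli to between 2.33 and 6.70 TPM, with TAZi and TEADi overlapping with Ctrli (log2 fold changes 2.01 to 2.26). The 2 scales differed here as well: in YAPi, mean TPM rose from 2.70 to 4.89 and mean normalized counts from 15.7 to 71.6. With effective length offsets, SERPINB2 lost its call in YAPi_TAZi and TEADi but not in YAPi and TAZi. Its call was lost without either Ctrli library in all 4 knockdowns (adjusted p 0.027 to 0.21), and also without YAPi replicate 1 or 2 (0.027 and 0.012), YAPi_TAZi replicate 1 or 2 (0.067 and 0.018) and TEADi replicate 2 (0.05). PLAUR fell with YAPi_TAZi (-0.47 ± 0.10, adjusted p = 8e-06), and SERPINE2 fell with TAZi (-0.87 ± 0.20, adjusted p = 8e-05) and YAPi_TAZi (-0.58 ± 0.20, adjusted p = 0.009). All 3 calls were lost without either Ctrli library (adjusted p 0.16 to 0.53). The SERPINE2 calls were also lost without TAZi replicate 2 (0.048) and without YAPi_TAZi replicate 1 or 2 (0.2 and 0.069). SERPINB4 passed the threshold in YAPi_TAZi on 4.16 and 4 counts against 2 and 2, too few for a fold change, and the call was lost without any 1 of these 4 libraries (adjusted p 0.1 to 0.25). Against the other knockdowns of set 1, PLAU in YAPi_TAZi was the only one of these member calls that held.

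In set 2, knockdown of JUNB called 1 of the 9 members (3.41% of genes called). PLAU stood at 208 and 264 TPM, against 140 and 104 TPM (0.68 ± 0.17, adjusted p = 0.0037). The groups did not overlap, but the call was lost without Ctrli replicate 4 (0.097), JUNBi replicate 1 (0.1) or JUNBi replicate 2 (0.35), and edgeR gave adjusted p = 0.01, or 0.13 after a filter on low counts. Knockdown of STAT3 in set 2 called 0 members with DESeq2 (0.497% of genes called) and 0 at an unadjusted p under 0.05. Only 2 members had an adjusted p, and STAT3 itself had none despite its fall (-2.41 ± 0.32). The edgeR test called 0 members and 0.00% of genes, with or without a filter on low counts. SERPINE2, which fell with STAT3i in ER-Src under TAM, was at 7.86 and 10.3 TPM in STAT3i and at 8.85 and 9.25 TPM in Ctrli (-0.17 ± 0.36, unadjusted p = 0.64).

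**Figure D4:**
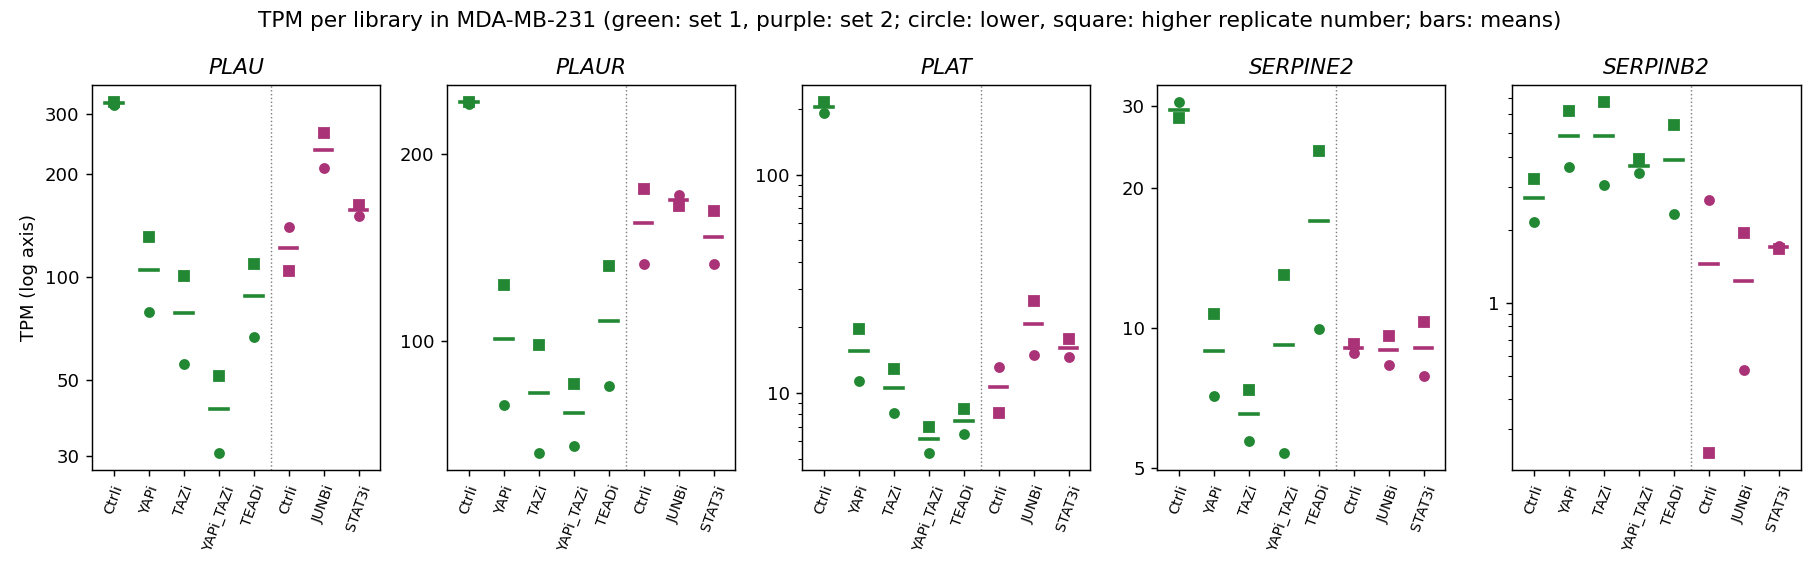
TPM of PLAU, PLAUR, PLAT, SERPINE2 and SERPINB2 in the 16 MDA-MB-231 libraries (8 groups, log axis). Circles mark the lower and squares the higher replicate number of a group. The set 1 controls stand above all other libraries for PLAU, PLAUR and PLAT.

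Among the 13 partners of the plasminogen system reported here, 10 had an adjusted p with TAM in control cells, of which 1 rose (SERPINF2, the plasmin inhibitor alpha-2-antiplasmin, 2.85 ± 0.32) and 1 fell (ANXA2, a surface docking protein for plasminogen, -0.28 ± 0.08). Their median log2 fold change was 0.03, against -0.01 over all genes. Of the 8 other clade B serpins, 4 had an adjusted p and 2 rose: SERPINB1, an inhibitor of neutrophil proteases (3.66 ± 0.11), and SERPINB13 (4.14 ± 0.27). Of the 9 other serpins, 6 had an adjusted p and 2 rose: SERPINA3 (antichymotrypsin, 5.05 ± 0.11) and SERPINA1 (antitrypsin, 3.92 ± 0.11), both acute-phase proteins.

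With STAT3i under TAM, 2 of the 4 tested clade B serpins fell (SERPINB1 -2.85 ± 0.15, SERPINB13 -1.19 ± 0.21), as did 3 of the 6 other serpins: SERPINA3 (-4.09 ± 0.42), SERPINA1 (-3.79 ± 0.15) and SERPINH1, a collagen chaperone (-0.61 ± 0.13). Of the 10 tested partners, SERPINF2 fell (-1.92 ± 0.28), and ANXA2 rose (0.76 ± 0.10). With JUNBi under TAM, 0 of the 10 partners were called, and SERPINB1 (-1.59 ± 0.11) and SERPINB13 (-1.33 ± 0.20) fell. SERPINA1 fell too (-1.0 ± 0.12), whereas SERPINA3 rose (0.44 ± 0.12). With YAPi under TAM, SERPINB1 (-1.30 ± 0.12), SERPINA1 (-1.36 ± 0.38), SERPINH1 (-0.49 ± 0.12) and SERPINF2 (-1.99 ± 0.29) fell, whereas the partners SPINT1 (0.56 ± 0.17) and ANXA2 (0.35 ± 0.10) rose. With TAZi under TAM, SERPINB1 (-0.75 ± 0.09), SERPINA3 (-0.94 ± 0.10) and the partner S100A10 (-0.63 ± 0.13) fell, while SERPINB13 rose (0.74 ± 0.15). Under ETH, YAPi called 1 of 10 partners (SERPINF2, -2.89 ± 0.71), 1 of 4 clade B serpins (SERPINB13, 2.66 ± 0.33) and 1 of 6 other serpins (SERPINA1, -0.66 ± 0.19). TAZi under ETH called 3 of 10 partners (SPINT1 0.70 ± 0.19, ANXA2 -0.42 ± 0.10 and S100A10 -0.44 ± 0.12), 1 of 4 clade B serpins (SERPINB13, 2.22 ± 0.39) and 1 of 6 other serpins (SERPINA3, -1.08 ± 0.24). JUNBi under ETH called 2 of 6 other serpins, both higher (SERPINA5 1.94 ± 0.40 and SERPINA3 1.53 ± 0.27), and STAT3i under ETH called none in the lists. SERPINB1 was lower with each of the 4 knockdowns under TAM, comparisons that share the same Ctrli libraries.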

How the data were processed

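Per the labels, total RNA and a single library kit were used throughout, although the set 1 controls and all of set 2 held almost no RNAs without a poly(A) tail. The authors used STAR with GENCODE 30 transcripts (hg38) for alignment and RSEM for quantification. RSEM splits a read with several possible genes of origin by probability. The authors deposited expected counts, unnormalized estimates of reads per gene that can hold fractions. The deposited TPM values are scaled per effective gene length and per library. Each table lists 61471 identifiers, of which 60725 are Ensembl genes, and the other 746 were left out. Symbols and coordinates came from GENCODE 44 (93.1% of the Ensembl genes matched), promoters from RefSeq.

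Expected counts were rounded. Groups came from the sample titles. Each of 19 comparisons was fitted on its own in DESeq2 (1.42.0, under R 4.3.3) using default size factors, the Wald test and independent filtering. The comparisons of each siRNA with its control follow the methods of the study, and TAM against ETH and the interactions were added here. A gene was called at a Benjamini-Hochberg adjusted p under 0.01 over all genes. A gene without an adjusted p was not called. Fold changes were not shrunk, and n = 2 per group. Depth is unequal, so a gene not called cannot be taken as unchanged. The fits were tested on simulated data. Genes outside the list were named by rule, up to 3 called genes of each of 3 lists with the largest change. A gene of the partner list is not reported here. Likeness was computed over genes whose normalized counts averaged 100 or more. The members and lists were chosen with earlier results of these data known. Alternatives were edgeR's quasi-likelihood test (4.0.16), TMM size factors, removal of genes whose counts average under 10, effective length offsets, SERPINB3 and SERPINB4 summed, 1 fit over all groups, the replicate number as a block, other references in MDA-MB-231 and leaving out each library. The edgeR test after a filter on low counts was added after the data were seen.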

Additional observations from a re-analysis of the deposited data

Results flagged for a closer look

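In 4 cases the effect of a knockdown differed between TAM and ETH by the interaction test of DESeq2 in ER-Src cells. With YAPi, SERPINE2, the secreted inhibitor protease nexin 1, rose under ETH and fell under TAM, a difference of -2.46 on the log2 scale (SE 0.28, adjusted p = 3.8e-15), and both YAPi libraries lay above Ctrli under ETH and below it under TAM. With YAPi, the difference for PLAU was -1.25 (SE 0.27, adjusted p = 0.00084), with both YAPi libraries above Ctrli under ETH. With STAT3i, the difference was -3.19 for SERPINB3 (SE 0.56, adjusted p = 3.3e-06) and -3.04 for SERPINE2 (SE 0.39, adjusted p = 9.6e-12). For SERPINE2 the ETH libraries of STAT3i and Ctrli overlapped, while under TAM both STAT3i libraries lay below Ctrli. For SERPINB3 both STAT3i libraries lay below Ctrli under TAM. Under ETH the STAT3i libraries were at 1 and 0.81 TPM against 1.74 and 1.01 TPM in Ctrli. Their counts overlapped (48.1 and 27.9 against 67.3 and 40.9), and the change under ETH was not called.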

How the results depend on the processing

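With 2 libraries per group, leaving out 1 assumes that the lone library varies like the others. Of the 32 member calls in ER-Src, 16 held in every such fit, as did 5 of 15 in MDA-MB-231 set 1 and 0 of 1 in set 2. TMM size factors kept all of these calls, and 1 fit over all groups kept 24 of the 32. In simulated data with a preset spread, the edgeR test without a filter recovered no known change for JUNBi under TAM or YAPi in set 1. With a filter it did.

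The number of members called ranged without 1 library from 1 to 5 for YAPi under TAM, 0 to 2 for TAZi under TAM, 0 to 2 for JUNBi under TAM, 2 to 4 for YAPi under ETH, 0 to 1 for JUNBi under ETH, 1 to 3 for the YAPi interaction, 2 to 4 for the STAT3i interaction, 0 to 1 for the JUNBi interaction, 1 to 1 for YAPi, 1 to 5 for TAZi, 2 to 3 for YAPi_TAZi and 1 to 3 for TEADi in set 1, and 0 to 1 for JUNBi in set 2. With unfiltered edgeR it was 6 for YAPi (10.8% of genes called) and 0 for JUNBi (0.0866%) under TAM, and 2 for TAZi under ETH (6.57%). It was 4 for the YAPi interaction (1.07%) and 0 for JUNBi in set 2 (2.67%). In set 1 it was 1 for YAPi (3.09%), 2 for TAZi (7.02%), 2 for YAPi_TAZi (9.58%) and 1 for TEADi (7.20%). With filtered edgeR it was 0 for TAZi under TAM (1.33% of genes called) and 0 for JUNBi in set 2 (0.00%). It was 1 for the YAPi interaction (0.0966%) and 1 for the STAT3i interaction (0.366%), where the SERPINB3 call was lost. For TAZi under TAM it was 1 with a mean count of at least 10, with effective length offsets, with the summed pair (which removes SERPINB4 as a feature) and with the replicate block, and 0 in 1 fit over all groups. That fit gave 1 for JUNBi under TAM and 2 for JUNBi under ETH. Effective length offsets gave 2 for YAPi_TAZi in set 1 and 0 for JUNBi in set 2. Pooling the controls of sets 1 and 2 gave 0, 0, 2 and 0 in set 1 and 0 for JUNBi in set 2. The other set 1 knockdowns as reference, with the block, gave 0, 0, 1 and 0 (0.619%, 0.320%, 1.13% and 1.87% of genes called). There PLAT in YAPi (0.96), PLAT in TAZi (0.06), SERPINB2 in YAPi_TAZi (-0.19) and PLAU in TEADi (0.28) changed sign. Counts of members given here without a share of genes called are not results about the members. Except where stated, the cause was not tested.

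Shared replicate numbers were not shown to pair knockdown and control libraries (correlation of deviations -0.175 to 0.545 where numbers were shared). Among the 4 set 1 knockdowns they did mark kinds of library (0.684 to 0.718 over 6 pairs of groups, a check added after the data were seen), and comparisons among these carry the block. The replicate block gave 7 members for TAM against ETH (3.79% of genes called). In set 1 it gave 1 for YAPi (17.0%) and 1 for TEADi (19.1%), shares of the 9 near the background. The block kept 27 of the 32 ER-Src calls and 9 of the 15 in set 1. It added a call for SERPINB3 in YAPi under TAM (-0.76, adjusted p = 7.1e-05). Set 2 shares no numbers with its controls. Few counts limit SERPINB4 under ETH, and SERPINB3, SERPINB4, SERPINB5 and SERPINB7 in MDA-MB-231 at any depth reached here.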
